A study of Mus musculus with 2 samples.

Results

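Small RNA from macrophage exosomes held few copies of the rodent-specific repeat miRNAs named miR-466, miR-467, miR-669 and miR-297, and most of what was there came from 1 member, miR-669c-5p. Members were taken by name: every listed mature miRNA of these 4 families, which gave 80 of the 1976 miRNAs listed. Of these 31 are miR-466, 30 are miR-669, 13 are miR-467 and 6 are miR-297 names. Exosomes, the small vesicles that cells release, were collected from bone marrow-derived macrophages of C57BL/6 mice aged 5 to 6 weeks. The marrow cells of both groups had been grown for 7 days with M-CSF, a macrophage growth factor, at 10 ng/mL. They were then treated for 1 day with 20 ng/mL of IFN-γ (the M1 state) or 20 ng/mL of IL-4 (the M2 state) and kept for 2 days without serum, and vesicles were pelleted from that medium by ultracentrifugation. Each group has 1 library. No value has a replicate error, and each difference given here is between 2 libraries, not between 2 conditions. How many mice went into each culture is not given in the sources used here.

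A miRNA guides Argonaute proteins to messenger RNAs mainly through its seed, bases 2 to 8 of the mature strand, and 1 hairpin precursor can give a mature strand from its 5′ arm (5p) and from its 3′ arm (3p). Most of these families lie in an intron of Sfmbt2, an imprinted Polycomb-group gene that is expressed from the paternal allele in the early mouse embryo and placenta. The cluster expanded in rodents by repeated duplication, so its hairpins are alike and a short read can match several of them. miR-466l is known in macrophages for stabilising the Il10 message.

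In the RefSeq gene table (build GRCm38.p6), 78 of the 80 members matched a hairpin by name, and miR-466a-5p and miR-466a-3p did not. The matches covered 81 hairpins, of which 71 lay inside Sfmbt2 (GENCODE M21, GRCm38, chromosome 2, 10370510 to 10595253). These 71 spanned 51617 bases, from 10466663 to 10518279, and 0 of them overlapped an Sfmbt2 exon. In 2 of the 7 annotated Sfmbt2 transcripts a single intron held all of them, which reached from 10461473 to 10523944 where it was shortest. The other 10 hairpins lay on chromosomes 3, 5, 7, 9, 10, 11 and 13. The Sfmbt2 intron was thus the only source of 64 members, a possible source of 5 more, and no source of 9.

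RefSeq gave a mature sequence for 8 members, and these show an AC or GU repeat with different seeds. The other 72 members had no sequence, so their repeats and seeds were not examined. The 8 sequences are written 5′ to 3′ with the seed in capitals, and each comes from outside the Sfmbt2 intron. The first 3 were above 0 in at least 1 library and the other 5 were at 0 in both.
miR-466i-3p: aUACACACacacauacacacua
miR-669n: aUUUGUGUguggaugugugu
miR-467f: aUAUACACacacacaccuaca
miR-466j: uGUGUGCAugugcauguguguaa
miR-466k: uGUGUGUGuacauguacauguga
miR-466q: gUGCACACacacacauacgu
miR-467g: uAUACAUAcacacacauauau
miR-467h: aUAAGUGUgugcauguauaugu

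The 8 sequences were 20 to 23 bases long, no pair was identical, and they carried 8 different seeds. miR-466i-3p, miR-466q, miR-467f and miR-467g were built on an AC repeat, with 70.0% to 86.4% of their bases A or C. The other 4 were built on a GU repeat, with 68.2% to 90.0% of their bases G or U. ACACACAC, searched on the mature strand only, was found in 4 of the 8 and in 0 of 1669 non-members that have a sequence. GUGUGUGU was found in 1 of the 8, miR-466k, and in 6 of the 1669 non-members. Over all 1677 listed miRNAs with a sequence the motifs occurred in 0.239% and 0.417%. Non-members sharing a seed with any of these 8 members were 1 in number, miR-668-5p, which has the seed of miR-467h. The hairpin of miR-466i lies in an intron of Cdk13 (chromosome 13, 17747473 to 17747593), that of miR-669n in an intron of Slc30a7 (chromosome 3, 115979902 to 115979955) and that of miR-467f in an intron of Fxr2 (chromosome 11, 69635400 to 69635519).

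Levels are in units of the deposited scale, which is log2(level + 1), and a level here is 2 to the power of the deposited value, minus 1. The lowest levels fell on even steps that were read as the worth of 1 read, 0.80 units in the M1 library and 1.22 units in the M2 library. A level of 0 allows up to 3 reads, which is 2.40 units in the M1 library and 3.67 units in the M2 library, for counting error only. In M2 exosomes 5 members had values above 0 but far below 1 read, and these are counted here as under 1 read.

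Most members were not detectable at this depth. In M1 exosomes 19 of the 80 were above 0. In M2 exosomes 25 were above 0, or 20 without the 5 values under 1 read. A total of 55 were at 0 in both libraries. The 25 members above 0 in either library are 31.3% of the members, against 37.8% of all miRNAs listed. A level worth 3 reads in at least 1 library was reached by 15 members, or 18.8%, against 25.7% of all miRNAs. The minimum for comparison, 10 units in at least 1 library, was reached by 6 members, or 7.50%, against 17.1% of all miRNAs.

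By family, miR-669 and miR-466 accounted for most names seen, as they do for most names listed, and miR-297 for 0. The shares above 0 were 36.7% for miR-669, 35.5% for miR-466 and 23.1% for miR-467, against 37.8% of all miRNAs listed. Of the miR-669 names 11 of 30 were above 0 in a library, and 4 reached 10 units. Of the miR-466 names 11 of 31 were above 0, but 1 reached 10 units. Of the miR-467 names 3 of 13 were above 0, and 1 reached 10 units. The 6 miR-297 names were at 0 in both libraries, both arms of miR-297a, miR-297b and miR-297c, as were both arms of miR-466l.

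**Figure D1:**
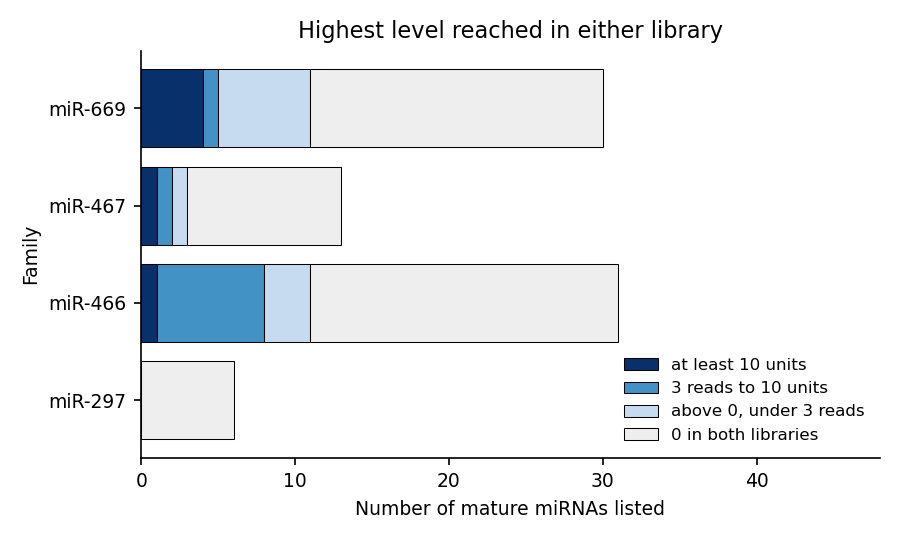
Number of mature names of each family (x axis) by the highest level they reached in either library, as stacked bars. miR-669 has 4 names at 10 units or more, miR-466 and miR-467 have 1 each, and all 6 miR-297 names are at 0 in both libraries.

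Hairpins whose mature names were above 0 lay all along the cluster in the Sfmbt2 intron. Those with a name at 3 reads or more lay within 43.5 kb of the first hairpin. The hairpins beyond that had names at 0 or under 3 reads. Of its 71 hairpins 23 share a mature name that reached 10 units, 19 one that was worth 3 reads or more below that, 7 one that was above 0, and 22 had every name at 0. These numbers do not count active hairpins, since the files give 1 value per mature name and miR-669a has 12 hairpins and miR-467a has 10. The median copy number was the same in names seen and not seen, but a median cannot show how names with several hairpins divided. The 24 members above 0 that matched a hairpin had a median of 1 hairpin (range 1 to 12), and the 54 at 0 had a median of 1, up to 10. Of the 6 members that reached 10 units, 3 come from 1 hairpin each: miR-669c-5p, miR-669c-3p and miR-466i-5p. miR-467a-5p matches 10 hairpins, and miR-669a-5p and miR-669a-3p match 12 each. Whether copy number went with level was not tested.

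**Figure D2:**
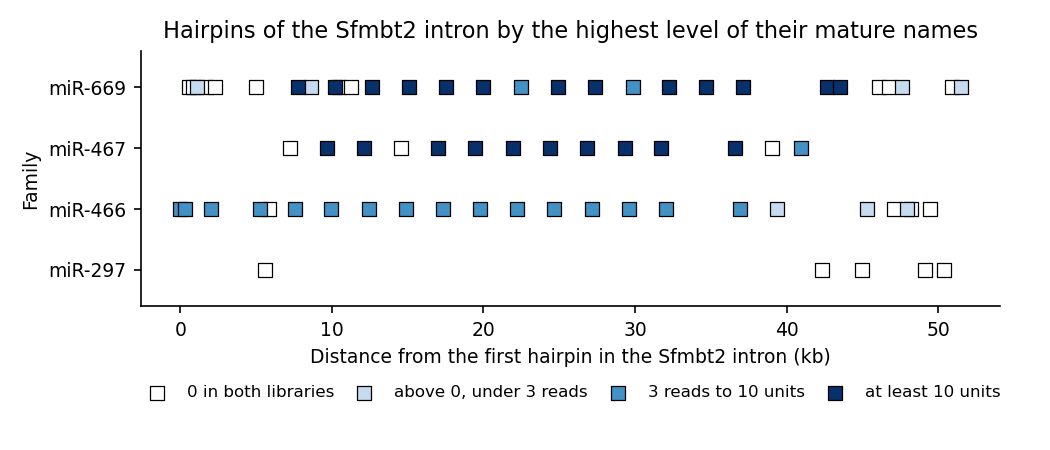
Hairpins of the Sfmbt2 intron by distance from the first hairpin in kb (x axis) and by family (rows), shaded by the highest level of the mature names they share; close neighbours overlap. Dark squares of miR-669 and miR-467 mostly repeat the values of miR-669a and miR-467a, and the 5 miR-297 squares are empty.

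miR-669c-5p was the most abundant member in both libraries. It stood at a log2 value of 6.54 in the M1 library and 7.32 in the M2 library, which are levels of 91.8 and 159 units, and ranked 154th and 134th of the 1976 miRNAs. Its hairpin is a single one in the Sfmbt2 intron, at chromosome 2, 10509296 to 10509404. The log2 ratio of M1 over M2 was -0.79, within 2-fold. The level was 1.73-fold higher in the M2 library, with a counting interval of 1.33 to 2.24. This interval, like those that follow, is the exact conditional 95% interval from levels divided by the worth of 1 read and rounded. It covers counting error only and assumes that the worth seen at low levels holds here. The 3p arm of the same hairpin was low, at 8.67 units in the M1 library and 11.4 units in the M2 library, with an interval of 0.458 to 3.32 for M2 over M1. The 5p arm thus held 10.6 times the level of the 3p arm in the M1 library and 14.0 times in the M2 library.

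The arms of miR-669a, which matched 12 hairpins by name, all in the Sfmbt2 intron, had values that differed between the libraries in opposite directions. A further 3p name, miR-669a-3-3p, matched 1 of these hairpins and was at 0 in both libraries, so the 2 arms may not share all 12. miR-669a-5p was at 10.3 units in the M1 library and 5.13 units in the M2 library, a log2 ratio of 0.89 that lay inside 2-fold on the log2(level + 1) scale. miR-669a-3p was at 6.24 units in the M1 library and 26.4 units in the M2 library, a log2 ratio of -1.92. The 5p arm was therefore the higher arm in the M1 library, by 1.65-fold, and the 3p arm was the higher arm in the M2 library, by 5.15-fold. The counting intervals of the M2 over M1 level did not overlap, at 0.112 to 1.52 for the 5p arm and 1.80 to 10.9 for the 3p arm. They rest on about 13 and 4 reads for the 5p arm and about 8 and 22 for the 3p arm. The interval of the 5p arm included 1. No interval was made for the 5p arm over the 3p arm within a library. Their order in the M1 library rests on about 13 against 8 reads. Whether the files assign the reads of miR-669a, miR-669p and other close copies to 1 name or several was not tested.

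miR-467a-5p had the largest difference among the members compared. It was at 0.69 units in the M1 library, near 1 read, and at 32.7 units in the M2 library, near 27 reads. The log2 ratio was -4.31, and the counting interval of the M2 over M1 level ran from 6.80 to 1689. Its partner miR-467a-3p was at 0 in both libraries. Of the other miR-467 names, miR-467d-3p was at 2.42 units in the M1 library, which is worth 3 reads, and under 1 read in the M2 library, with an interval that included 1. miR-467f, shown above with its AC repeat, was at the level of 1 read in the M1 library and under 1 read in the M2 library.

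miR-466 was spread thinly over its names. miR-466i-5p was at 10.2 units in the M1 library and 21.4 units in the M2 library, a log2 ratio of -0.998. That is just inside 2-fold on the log2(level + 1) scale on which 2-fold was counted, while the level itself was 2.09-fold higher in the M2 library, with an interval of 0.980 to 4.70 for M2 over M1. Its 3p arm, miR-466i-3p, whose sequence is given above, was at 4.70 and 8.81 units, with an interval of 0.513 to 6.42. The 5p arm held 2.18 times the level of the 3p arm in the M1 library and 2.43 times in the M2 library. Both arms come from the hairpin in Cdk13, outside the Sfmbt2 intron.

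The remaining miR-466 names were lower, and they were mostly 3p arms. miR-466f-3p was near 1 read in the M1 library, at 0.71 units, and at 8.71 units in the M2 library, with an interval of 1.37 to 482 for M2 over M1. It comes from 4 hairpins, of which 3 lie in the Sfmbt2 intron and 1 on chromosome 13. miR-466c-5p was at 0 in the M1 library and at 4.92 units in the M2 library, with an interval for M2 over M1 that started at 1.01 and had no upper end. miR-466m-3p was at 1.52 units in the M1 library and 5.00 units in the M2 library, with an interval that included 1. miR-466b-3p was at 0 in the M1 library and at the level of 3 reads in the M2 library, as was miR-669p-3p. These 5 names had the higher value in the M2 library.

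A few names had the higher value in the M1 library, each on few reads. miR-466a-3p was at 4.79 units in the M1 library and 1.35 units in the M2 library, with an interval of 0.476 to 181 for M1 over M2. miR-466e-3p was at 3.23 units in the M1 library and under 1 read in the M2 library, with an interval that included 1. With miR-467d-3p and miR-669a-5p these were the 4 of 15 members worth 3 reads or more whose value was higher in the M1 library, and the other 11 were higher in the M2 library. Over all 508 miRNAs worth 3 reads or more, 274 were higher in the M1 library and 234 in the M2 library. The 10 members above 0 that never reached 3 reads were at most 1.61 units in the M1 library and 2.52 units in the M2 library. Among them miR-669n and miR-669k-5p had equal values, 1.36 and 1.20 on the log2 scale, as do 14 listed miRNAs at that step.

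**Figure D3:**
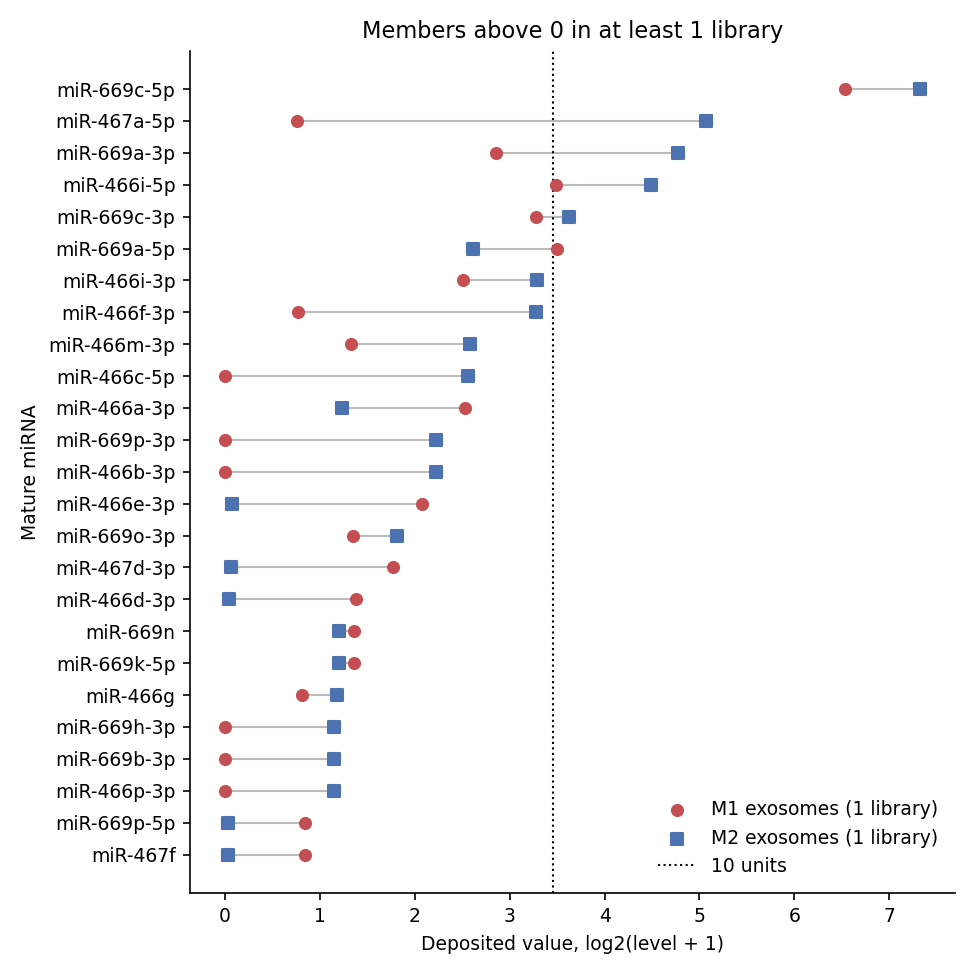
Deposited log2(level + 1) value (x axis) of the 25 members above 0 in the M1 library (circles) and M2 exosomes (squares), 1 library each, with a dotted line at 10 units. miR-669c-5p stands clear of the rest, and miR-467a-5p has the widest gap among members past the line. The arms of miR-669a lie in opposite order, on few reads.

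Members were counted as different by the log2 ratio, the difference of the deposited log2(level + 1) values. Of the 6 members compared, 2 were at least 2-fold higher in the M2 library, miR-467a-5p and miR-669a-3p, 0 were at least 2-fold higher in the M1 library, and 4 lay within 2-fold. Over all 337 miRNAs compared, 22.8% were at least 2-fold higher in the M2 library and 26.1% in the M1 library. With 6 members, counts of 2 and 0 are near those shares. On the ratio of levels with no 1 added, which was chosen after seeing the data, miR-466i-5p (2.09-fold) and miR-669a-5p (2.01-fold) also passed 2-fold, so that 3 were higher in the M2 library and 1 in the M1 library, against 23.1% and 26.7% of all miRNAs compared. At a lower minimum of 3 units 14 members were compared, 7 of them past 2-fold toward the M2 library and 2 toward the M1 library, against 25.6% and 31.6% of all 484 miRNAs that reached it. The 8 added members rest on at most about 7 reads in either library. The median log2 ratio of the 6 was -0.89, with a range of -4.31 to 0.89, against 0.04 over all miRNAs compared. Of the 6, 5 had a ratio below 0. A member could enter through its higher library alone. miR-467a-5p, miR-669a-3p and miR-669c-3p reached 10 units in the M2 library only, and miR-669a-5p in the M1 library only. With 10 units required in both libraries, 2 members were compared and 0 were past 2-fold. For the 15 members worth 3 reads or more, the whole counting interval lay on the side of the M2 library in 5, miR-467a-5p, miR-466f-3p, miR-669a-3p, miR-669c-5p and miR-466c-5p. It lay on the side of the M1 library in 0 and included 1 in 10. Over all 508 miRNAs worth 3 reads or more, the shares were 26.2% on the M2 side and 29.5% on the M1 side, many of them at higher levels with shorter intervals.

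**Figure D4:**
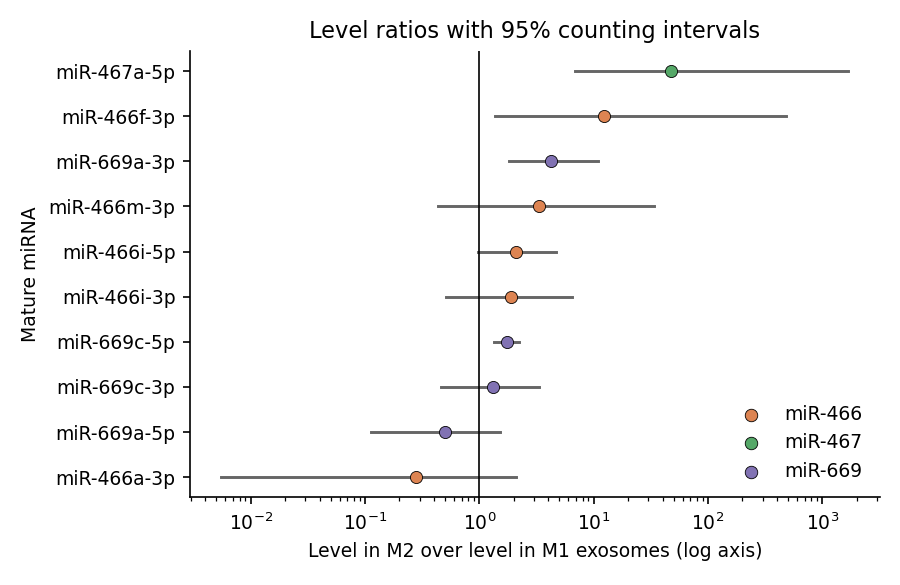
Level in the M2 library over level in the M1 library (log x axis) for the 10 members with at least 1 read in both libraries and 3 or more in 1, with exact conditional 95% intervals for counting error only (bars). The 4 intervals that do not reach the line at 1 all lie to its right, and that of miR-669c-5p is the shortest.

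Summed over the 80 names, the level was 154 units in the M1 library and 302.5 units in the M2 library. That was 0.0224% of the summed level of all miRNAs in the M1 library and 0.0412% in the M2 library. The sum was 1.96-fold higher in the M2 library (counting interval 1.62 to 2.39), while the sum of all miRNAs was 1.07-fold higher there. miR-669c-5p alone held 59.6% of the members' level in the M1 library and 52.6% in the M2 library, and without it the sum was 2.31-fold higher in the M2 library (interval 1.71 to 3.09). The miR-669 names summed to 123 and 213 units, 1.74-fold higher in the M2 library. The miR-466 names summed to 27.5 and 56.5 units, 2.05-fold higher. The miR-467 names summed to 3.92 and 32.7 units, 8.35-fold higher, almost all of it miR-467a-5p in the M2 library. A read counted for several names would enter these sums more than once, which would make the intervals too short.

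More 3p than 5p names were above 0, while the 5p names held more of the level. Of the 3p names 15 of 35 were above 0 in a library, and of the 5p names 7 of 33. These are 42.9% and 21.2%, against 37.8% of all miRNAs listed. The shares by arm over all miRNAs are not given here, so the difference cannot be called particular to these families. For miR-466 the counts above 0 were 8 of 13 for 3p against 2 of 13 for 5p names, most of them at a few reads. Of 33 precursor names with both arms listed, 11 had the 3p arm alone above 0, 3 had the 5p arm alone, 4 had both and 15 had neither. The 5p names nevertheless summed to 115 and 225 units in the M1 and M2 libraries, against 35.4 and 75.3 units for the 3p names, since miR-669c-5p is a 5p arm. Members from the Sfmbt2 intron alone summed to 131 and 261 units, 1.99-fold higher in the M2 library. The 9 members from other loci alone summed to 17.3 and 31.5 units, 1.82-fold higher, most of it the miR-466i pair.

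Outside the families, 6 listed miRNAs hold a GUGUGUGU repeat in their RefSeq mature sequence, and the 2 that reached 10 units are shown for comparison with the repeat members, the first GUGUGUGU in capitals.
miR-574-5p: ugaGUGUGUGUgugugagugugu
miR-1187: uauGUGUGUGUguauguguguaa

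miR-574-5p was far above every member, at 531 units in the M1 library and 448 units in the M2 library, a log2 ratio of 0.24. miR-1187 was at 9.43 units in the M1 library and 21.4 units in the M2 library, a log2 ratio of -1.11. Its values lie next to those of miR-466i-5p, and the 2 entries are the only miRNAs listed at 4.49 on the log2 scale in the M2 library. Whether they hold the same reads was not tested. The other 4 repeat holders were at 0 or at the level of 1 read. A repeat in the mature sequence thus went with levels from 0 to 531 units.

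**Figure D5:**
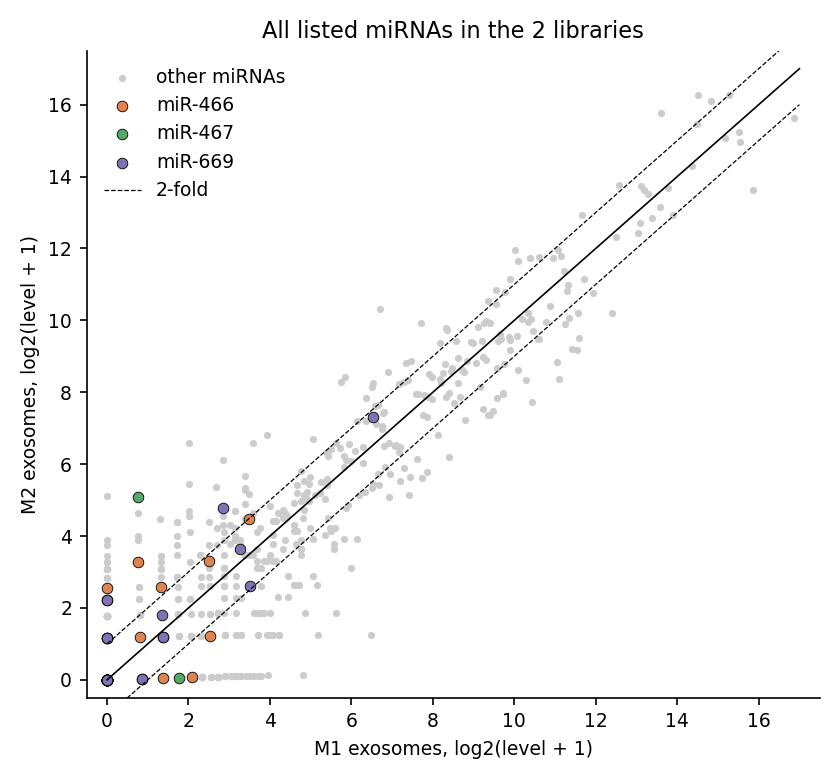
Deposited log2(level + 1) values of the 1976 miRNAs in the M1 library (x axis) and M2 exosomes (y axis), with members coloured by family, the line of equality and the 2-fold lines (dashed). Members crowd the low corner, and miR-669c-5p, at 6.54 and 7.32, is the highest of them.

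Names of the embryonic miR-290 and miR-302 clusters were mostly at 0, whereas several from the imprinted Mest and Gnas loci were above 0. The 36 names taken were from the miR-290 and miR-302 clusters, which mark embryonic stem cells, and from H19, Mest and the Gnas region. Of these, 29 were at 0 in both libraries and 2 were compared. Over all 1976 miRNAs listed, 1229 were at 0 in both libraries and 337 were compared. miR-298-5p of the Gnas region was at 176 units in the M1 library and 469 units in the M2 library, a log2 ratio of -1.41. miR-296-3p, its neighbour, was at 99.8 and 51.9 units, a log2 ratio of 0.93, while its 5p arm had log2 values of 1.32 and 3.09. miR-335-3p of Mest was at 8.02 units in the M1 library and under 1 read in the M2 library, and miR-335-5p was at 0.74 and 2.49 units. miR-302c-3p was at 0 in the M1 library and 2.44 units in the M2 library. Of 8 embryonic stem cell markers 7 were at 0 in both libraries, and miR-302d-3p was at 0 in the M1 library and 4.92 units in the M2 library.

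Macrophage and myeloid markers were present in both libraries. All 6 were compared, with 3 at least 2-fold higher in the M1 library, 2 in the M2 library and 1 within 2-fold. Together they held 18.1% of the summed level in the M1 library and 7.23% in the M2 library, nearly all of it miR-146a-5p. Markers of other cells were present too, and the 2 libraries differed in them. The 4 erythroid markers held 0.756% and 0.124% of the level, the 5 stromal markers 0.637% and 0.200%, and the hepatocyte marker miR-122-5p 8.71% and 1.72%. The sum of each of these lists was higher in the M1 library, as was that of the macrophage and myeloid list. Within the stromal list miR-143-3p had a log2 ratio of -0.33. The part of these other cells in the values of the repeat families was not tested.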

How the data were processed

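The data are 2 small RNA libraries, 1 from M1 and 1 from M2 exosomes. Values are on a log2 scale as the authors deposited them, 1 per mature miRNA. Per the submitters' processing notes, Bowtie2 and bedtools were used with mm10. Not given in the sources used here are versions, read assignment, treatment of multiply matching reads, strand and normalization.

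A level is 2 raised to the value, less 1. The worth of 1 read was the lowest level among 175 miRNAs with an M2 value below 1 read (M1, 99.4% whole multiples within 0.1 step) and among 129 miRNAs at 0 in M1 exosomes (M2, 95.3%). Those 175 M2 values, 0.03 to 0.135, lay below 1 read, so the files were treated as normalized together; M1 values were shifted too, and 3 members lay slightly below 1 read. Total reads are unknown. A miRNA was compared at 10 units or more in at least 1 library (12.5 reads in M1, 8.18 in M2) and counted at 2-fold or more. Exact conditional 95% intervals used rounded reads. With 1 library per group no test was made.

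Members and lists were chosen with earlier results of these data known. The text names every member at 10 units or 3 reads, and the other arm of those at 10 units. It also names the GU-repeat, imprinted and embryonic list members at 10 units. Other names were chosen after their values were seen, as was the ACACACAC motif. Python 3.11.15, numpy 2.4.6, pandas 2.3.3, scipy 1.17.1 and matplotlib 3.10.9 were used.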

Additional observations from a re-analysis of the deposited data

How the results depend on the processing

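The number of members called depended on the minimum level. With a minimum of 3 units, 14 members were compared, and 2 were higher in the M1 library and 7 in the M2 library. Over all 484 miRNAs at that minimum, 153 were higher in the M1 library and 124 in the M2 library. With a minimum of 30 units 2 members were compared and 1 was higher in the M2 library. Over all 229 miRNAs at that minimum, 58 were higher in the M1 library and 45 in the M2 library. With the minimum of 10 units in both libraries 2 members were compared and 0 were higher in the M2 library. miR-467a-5p and miR-669a-3p were low in the M1 library and dropped out. Over all 246 miRNAs compared in this way, 55 were higher in the M1 library and 37 in the M2 library. A pseudocount of 10 units and division by the summed level left the member counts at 0 for the M1 library and 2 for the M2 library. Over all 337 miRNAs compared, these counts were 66 and 57 with the pseudocount and 94 and 66 with the division. Centring on the median put miR-466i-5p at -1.04, past 2-fold, and the member count for M2 exosomes at 3. Over all 337 miRNAs the counts were then 88 for the M1 library and 82 for the M2 library. The median log2 ratio of the members stayed below 0 under these 6 settings, from -2.55 to -0.68. Of the 6 members compared at 10 units, miR-669a-5p had a ratio above 0 and the other 5 a ratio below 0 under each setting that compared them. The ratio of levels with no 1 added was chosen after seeing the data. On it the member count for the M1 library was 1, miR-669a-5p, and that for the M2 library 3. Over all 337 miRNAs they were 90 and 78. The members' share of the level was 0.0191% in M1 and 0.0355% in the M2 library with Sfmbt2 hairpins alone, and 0.00906% and 0.0195% without miR-669c-5p, an alternative added after seeing the data. Members seen numbered 8 in M1 and 12 in the M2 library at 3 units or more. Counting identical mature sequences as 1 was not run, since sequences were at hand for 8 members only. Those 8 differed, but all come from outside the Sfmbt2 intron. Whether any of the other 72 members share a mature sequence was not tested, so some may not be separate. No paired analysis was possible because there is only 1 library on each side. Most members were under 3 reads, so depth limits what can be said of them.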
